A study of Ovis aries with 10 samples.

Results

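The genes described here are 9 receptors of progestins, oestrogens and corticosteroids, chosen by symbol from a table of read counts for 33775 genes. They are the nuclear receptors PGR (progesterone), ESR1 and ESR2 (oestradiol), NR3C1 (glucocorticoids) and NR3C2 (mineralocorticoids), the membrane oestrogen receptor GPER1, the membrane progestin receptor PAQR8 and the haem-binding membrane proteins PGRMC1 and PGRMC2. Each of the 9 symbols had 1 row in the table. Gene expression was measured by RNA sequencing in the mediobasal hypothalamus of adult Ile-de-France ewes in the luteal or the follicular phase of the ovarian cycle, and no treatment was named in the labels. RNA from 20 ewes, 10 per phase, was combined at random within a phase into equimolar mixes of 2 ewes, which gave 5 luteal and 5 follicular libraries with no ewe in both phases. The title of the series names the effect of progesterone on this region as its question, and the comparison was of luteal with follicular ewes, phases in which progesterone is known to be high and low. No hormone level was used here.

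Nuclear steroid receptors are transcription factors that bind their hormone inside the cell and then act on DNA at hormone response elements, with chaperones that hold the free receptor and coregulators that act at the target gene. Membrane receptors pass the signal of the same hormones through G proteins or other routes within minutes. In the mediobasal hypothalamus, ovarian steroids act through receptors on neurons of the arcuate nucleus to hold back or release gonadotropin-releasing hormone, since the neurons that make this hormone largely lack ESR1 and PGR. Oestradiol acting through ESR1 is known to induce the gene of the progesterone receptor in hypothalamic neurons.

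Library totals ran from 28571863 to 42358557 reads in luteal libraries and from 20644992 to 43193449 reads in follicular libraries. Levels are given as CPM, read counts relative to the library total after scaling by trimmed mean of M-values (TMM). No transcript lengths were used, so levels of different genes are not compared. Libraries differed along 1 main axis, the first principal component (PC1) of the log2 CPM of the 18267 other genes tested, which held 51.0% of the variance. Its scores ran from -14.4 to 58.2 in luteal libraries and from -61.6 to 48.1 in follicular libraries (exact two-sided permutation of the means, p = 0.143, adjusted p = 0.198 over 3 library measures). The share of counts in 30 ribosomal protein genes ran from 2.297% to 3.25% in luteal and from 2.21% to 3.94% in follicular libraries (exact permutation p = 0.198). All 30 averaged lower in luteal libraries, with a median log2 fold change of -0.44. Follicular 1 and 3 had the smallest totals, the highest ribosomal protein shares and the lowest scores on the axis. The 30 ribosomal protein genes were among the genes that define this axis, so their share and the score are not independent.

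The tissue held the marker genes of its label. Of the mediobasal hypothalamic markers, POMC averaged 903 ± 284 CPM in luteal and 1060 ± 369 CPM in follicular libraries, and TAC3 averaged 264.8 ± 41.8 CPM in luteal and 256.7 ± 49.96 CPM in follicular libraries (SD, n = 5 each). Of the markers of other forebrain regions, NEUROD6, TBR1 and EMX1 averaged 0.0258 to 0.186 CPM in luteal and 0.0352 to 0.0663 CPM in follicular libraries, and TCF7L2 averaged 23.3 ± 6.13 CPM in luteal and 17.8 ± 5.44 CPM in follicular libraries. Every library held pituitary reads, with a summed level of 7 markers from 1741 to 3077 CPM in luteal and from 2598 to 3674 CPM in follicular libraries. The part of pituitary RNA in the POMC level was not tested. Not each marker was found in each library, as POU1F1 had 0 reads in follicular 3. CGA, the common subunit of the glycoprotein hormones, averaged 1343 ± 341 and 2033 ± 245 CPM, and PITX1, a pituitary transcription factor, 495.3 ± 87.3 and 516.3 ± 70.8 CPM in luteal and follicular libraries. Each library is a mix of all cells of the block, so that fewer cells of a type and less RNA per cell cannot be told apart.

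Of the 9 receptors, 7 averaged higher in luteal libraries and 2, ESR2 and GPER1, averaged lower. None passed the edgeR quasi-likelihood test after Benjamini-Hochberg adjustment over 18276 genes, with adjusted p from 0.426 to 0.823, and edgeR called 0% of all genes tested (0 of 18276). At an unadjusted edgeR p below 0.05 there were 2 receptors, NR3C2 and PGR, both higher in luteal libraries, beside 4.27% of all genes in that direction, 7.12% of all genes lower in luteal libraries and 11.4% in either direction. Without follicular 5 there were 6 receptors (PGR, ESR1, NR3C1, NR3C2, PGRMC1 and PGRMC2), beside 34.2% of all genes, and without luteal 4 there were 4 (PGR, ESR1, NR3C1 and NR3C2), beside 15.4%. Without follicular 1, 2, 3 or 4 or luteal 1, 2 or 5 it was NR3C2 alone, beside 5.14% to 16.9% of all genes. DESeq2 called 35 genes, or 0.227% of those for which it gave an adjusted p, and limma-voom called 0. No receptor was called by either tool. The phases overlapped for all 9 receptors, while 1.12% of all genes tested had ranges that did not overlap, 0.607% with the luteal range higher. The median log2 fold change of luteal over follicular was 0.29 over the 9 receptors and 0.01 over all genes, and 51.5% of all genes tested had a fold change above 0.

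**Figure D1:**
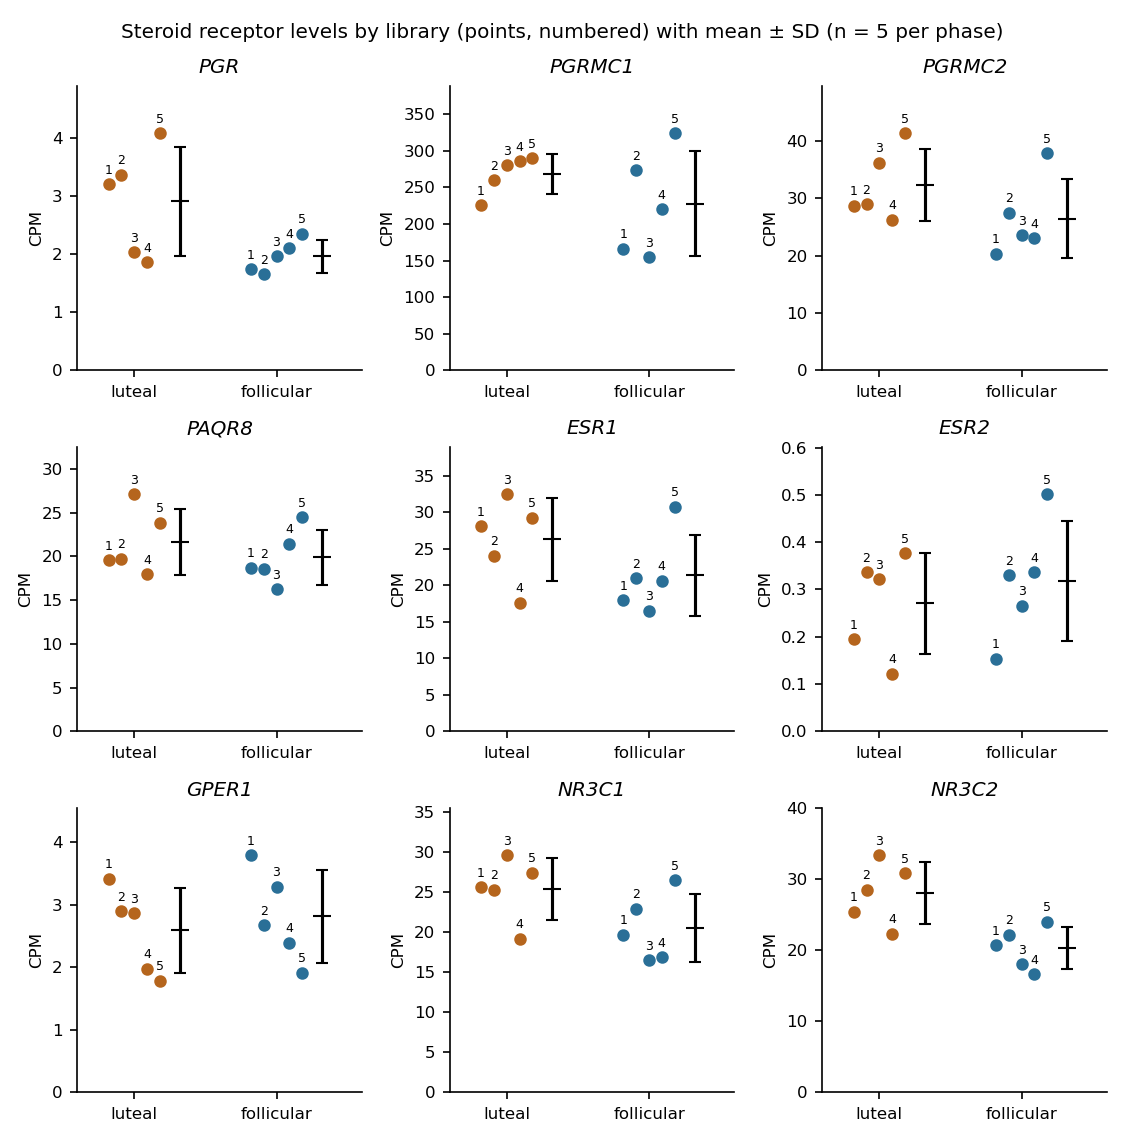
Level of each receptor in CPM (vertical axis, from 0) in luteal libraries 1 to 5 (left, brown) and follicular libraries 1 to 5 (right, blue), with mean and SD as black bars. Every receptor has overlapping phases. For NR3C2, luteal 4 is the single luteal library below the highest follicular value of 24.0 CPM.

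The mineralocorticoid receptor gave the smallest p of the set. NR3C2 encodes a receptor that binds cortisol with higher affinity than the glucocorticoid receptor does, and to which progesterone also binds. It had 25.4, 28.5, 33.4, 22.3 and 30.8 CPM in luteal libraries 1 to 5, against 20.7, 22.2, 18.04, 16.7 and 24.0 CPM in follicular libraries 1 to 5. Luteal 1, 2, 3 and 5 lay above every follicular library, and luteal 4 lay below follicular 5 only. The mean was 28.1 ± 4.34 CPM in luteal and 20.3 ± 3.00 CPM in follicular libraries (SD, n = 5 each), and the log2 fold change was 0.47 (SE 0.14, 95% confidence interval 0.16 to 0.77; edgeR adjusted p = 0.426). Its p had place 183 in the order of 18276 genes. Of the 2 non-coding genes whose annotated spans overlap that of NR3C2, LOC121817000 averaged 0.98 CPM in luteal and 1.18 CPM in follicular libraries. With PC1 as a covariate its log2 fold change was 0.28 (SE 0.11; edgeR adjusted p = 0.536), and without follicular 1 and 3 it was 0.43 (SE 0.17; edgeR adjusted p = 0.994).

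NR3C1 encodes the glucocorticoid receptor, which carries the feedback of cortisol on the brain. It had 25.6, 25.3, 29.5, 19.2 and 27.4 CPM in luteal libraries 1 to 5, against 19.7, 22.9, 16.5, 16.9 and 26.5 CPM in follicular libraries 1 to 5. Luteal 3 and 5 exceeded every follicular library, and follicular 5 exceeded luteal 1, 2 and 4. NR3C1 had a log2 fold change of 0.31 (SE 0.16, 95% confidence interval -0.04 to 0.66; edgeR adjusted p = 0.430). With PC1 as a covariate it was 0.09 (SE 0.11), and without follicular 1 and 3 it was 0.21 (SE 0.18).

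PGR, the nuclear progesterone receptor, had the largest fold change of the 9 and few reads, 63 to 173 per luteal and 34 to 108 per follicular library. It had 3.20, 3.36, 2.03, 1.86 and 4.07 CPM in luteal libraries 1 to 5, against 1.74, 1.65, 1.96, 2.098 and 2.35 CPM in follicular libraries 1 to 5. Luteal 1, 2 and 5 lay above every follicular library, and luteal 3 and 4 lay within the follicular range. The mean was 2.90 ± 0.94 CPM in luteal and 1.96 ± 0.28 CPM in follicular libraries (SD, n = 5 each), with a coefficient of variation of 32.3% in luteal and 14.3% in follicular libraries. The log2 fold change was 0.56 (SE 0.24, 95% confidence interval 0.03 to 1.09; edgeR adjusted p = 0.426). With PC1 as a covariate it was 0.44 (SE 0.26), and without follicular 1 and 3 it was 0.52 (SE 0.30).

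Pituitary gonadotrophs, which make LHB and FSHB, also express PGR and ESR1. FSHB had 57.0, 46.8, 71.8, 23.4 and 107.4 CPM in luteal libraries 1 to 5, against 34.2, 10.6, 17.7, 63.2 and 20.0 CPM in follicular libraries 1 to 5. LHB had 57.1 to 169.9 CPM in luteal and 26.2 to 272.2 CPM in follicular libraries. Of the luteal libraries, LHB was highest in luteal 1 and lowest in luteal 4, with 89.8 CPM in luteal 5. Of the 7 pituitary markers, 2 averaged higher and 5 lower in luteal libraries, with a median log2 fold change of -0.07. Luteal 5 was highest and luteal 4 lowest of the luteal libraries in both FSHB and PGR, and luteal 3, next to the highest in FSHB, lay within the follicular range in PGR. Of the follicular libraries, follicular 4 was highest in FSHB and follicular 5 in PGR. Neither gene passed edgeR (adjusted p = 0.426 for FSHB and 0.956 for LHB). The part of gonadotroph RNA in the PGR and ESR1 levels was not tested.

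Of the membrane proteins linked to progesterone, PGRMC1, an endoplasmic reticulum protein that binds haem and cytochrome P450 enzymes and was first isolated as a progesterone-binding membrane protein, had 225.4, 259.5, 280.3, 286.1 and 290.2 CPM in luteal libraries 1 to 5, against 166.5, 273.8, 155.0, 220.1 and 323.7 CPM in follicular libraries 1 to 5. Luteal values were close together and follicular values spread on both sides of them, with a coefficient of variation of 9.97% in luteal and 31.4% in follicular libraries. PGRMC1 had a log2 fold change of 0.24 (SE 0.19, 95% confidence interval -0.18 to 0.65; edgeR adjusted p = 0.525). Without follicular 1 and 3 it was -0.02 (SE 0.15), and with PC1 as a covariate also -0.02 (SE 0.11).

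PGRMC2, its close relative and likewise a haem-binding protein, had 28.7, 29.0, 36.3, 26.3 and 41.3 CPM in luteal libraries 1 to 5, against 20.3, 27.5, 23.6, 23.0 and 37.9 CPM in follicular libraries 1 to 5. Follicular 1, 3 and 4 lay below every luteal library, and follicular 5 lay above all luteal libraries but luteal 5. For PGRMC2 the log2 fold change was 0.29 (SE 0.18, 95% confidence interval -0.11 to 0.68; edgeR adjusted p = 0.457), and with PC1 as a covariate it was -0.01 (SE 0.09).

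PAQR8 encodes membrane progestin receptor beta, which signals through G proteins. It had 19.6, 19.7, 27.1, 17.9 and 23.9 CPM in luteal libraries 1 to 5, against 18.7, 18.6, 16.2, 21.4 and 24.4 CPM in follicular libraries 1 to 5. Luteal 3 was highest and follicular 3 lowest, and the other 8 libraries were intermixed. For PAQR8 the log2 fold change was 0.12 (SE 0.15, 95% confidence interval -0.21 to 0.45; edgeR adjusted p = 0.668), so that the interval leaves room for a level 0.867 to 1.36 times that of follicular ewes.

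ESR1, the oestrogen receptor alpha, through which oestradiol exerts most of its feedback on gonadotropin-releasing hormone, had 28.1, 24.0, 32.4, 17.6 and 29.2 CPM in luteal libraries 1 to 5, against 17.9, 20.9, 16.5, 20.6 and 30.7 CPM in follicular libraries 1 to 5. Luteal 1, 2, 3 and 5 lay above follicular 1 to 4, while luteal 4 lay above follicular 3 only and follicular 5 above every luteal library but luteal 3. The log2 fold change was 0.30 (SE 0.20, 95% confidence interval -0.13 to 0.73; edgeR adjusted p = 0.466). With PC1 as a covariate it was 0.03 (SE 0.14), and without follicular 1 and 3 it was 0.13 (SE 0.22).

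ESR2, the oestrogen receptor beta, was near the limit of detection, with 8, 13, 10, 5 and 16 reads in luteal libraries 1 to 5 and 3, 9, 5, 9 and 23 reads in follicular libraries 1 to 5. These reads correspond to 0.20, 0.34, 0.32, 0.12 and 0.38 CPM in luteal and to 0.15, 0.33, 0.27, 0.34 and 0.50 CPM in follicular libraries. The exact Poisson 95% interval, which covers counting error only, was 0.0397 to 0.285 CPM for luteal 4, the lowest library, and 0.318 to 0.752 CPM for follicular 5, the highest. The log2 fold change was -0.30 (SE 0.38, 95% confidence interval -1.13 to 0.54; edgeR adjusted p = 0.679), and with PC1 as a covariate it was -0.71 (SE 0.33). The interval of the fit by phase alone spans 0.456 to 1.45 times the follicular level.

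GPER1, a G protein-coupled receptor of the cell membrane that responds to oestradiol, had 3.42, 2.90, 2.87, 1.98 and 1.79 CPM in luteal libraries 1 to 5, against 3.79, 2.68, 3.29, 2.40 and 1.92 CPM in follicular libraries 1 to 5. The phases covered nearly the same range. GPER1 had a log2 fold change of -0.11 (SE 0.25, 95% confidence interval -0.65 to 0.43; edgeR adjusted p = 0.823), and it was 0.16 (SE 0.27) without follicular 1 and 3. By the annotation of ARS-UI_Ramb_v3.0 the span of GPER1 lies inside that of C24H7orf50, which averaged 54.4 ± 9.06 CPM in luteal and 66.1 ± 16.5 CPM in follicular libraries (edgeR adjusted p = 0.457). Whether the counting used strand is not given in the sources used here, so reads of these overlapping genes may not be fully separated.

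**Figure D2:**
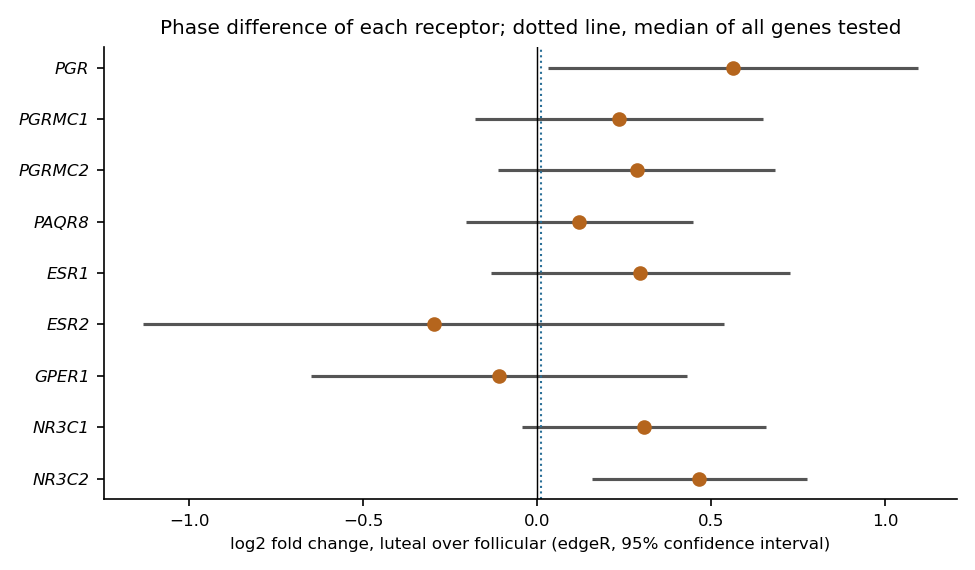
Log2 fold change of luteal over follicular libraries (horizontal axis) for each receptor, with the 95% confidence interval from edgeR; the dotted line marks the median of all 18276 genes tested at 0.01. The intervals of NR3C2 and PGR lie above 0, and neither gene passed after adjustment over all genes.

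The 2 corticosteroid receptors bind the same hormone, and their ratio within a library does not depend on scaling. NR3C2 had 0.995, 1.13, 1.13, 1.17 and 1.13 reads per NR3C1 read in luteal libraries 1 to 5, against 1.05, 0.970, 1.09, 0.989 and 0.909 in follicular libraries 1 to 5. Luteal 2 to 5 lay above every follicular library, and luteal 1 lay within the follicular range. The log2 ratio averaged 0.15 ± 0.09 in luteal and 0.00 ± 0.10 in follicular libraries (SD, n = 5 each), a difference of 0.15 (exact permutation, p = 0.0476 before and 0.127 after adjustment for 4 ratios). The smallest p that this design allows is 0.00794.

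The ratio of ESR1 to ESR2 reads was 135.5, 68.8, 95.9, 131.2 and 75.2 in luteal libraries 1 to 5, against 100.1, 60.2, 56.6, 58.0 and 60.1 in follicular libraries 1 to 5, with 0.5 added to each count. All luteal libraries lay above follicular 2 to 5, and follicular 1, with 3 reads of ESR2, lay within the luteal range. The difference of the mean log2 ratio was 0.58 (exact permutation test, p = 0.0635, adjusted p = 0.127). With 5 in place of 0.5 added to each count, the difference was 0.71 and the adjusted exact permutation p was 0.0317. That addition is as large as or larger than the ESR2 count of luteal 4, follicular 1 and follicular 3, and it makes the ratio depend on library total, which averaged 37595900 reads in luteal and 28178600 reads in follicular libraries. PGRMC1 to PGRMC2 differed by -0.01 on the log2 scale (exact permutation p = 0.937) and PGR to ESR1 by 0.20 (exact permutation p = 0.429, adjusted p = 0.571), both with phases that overlapped broadly.

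**Figure D3:**
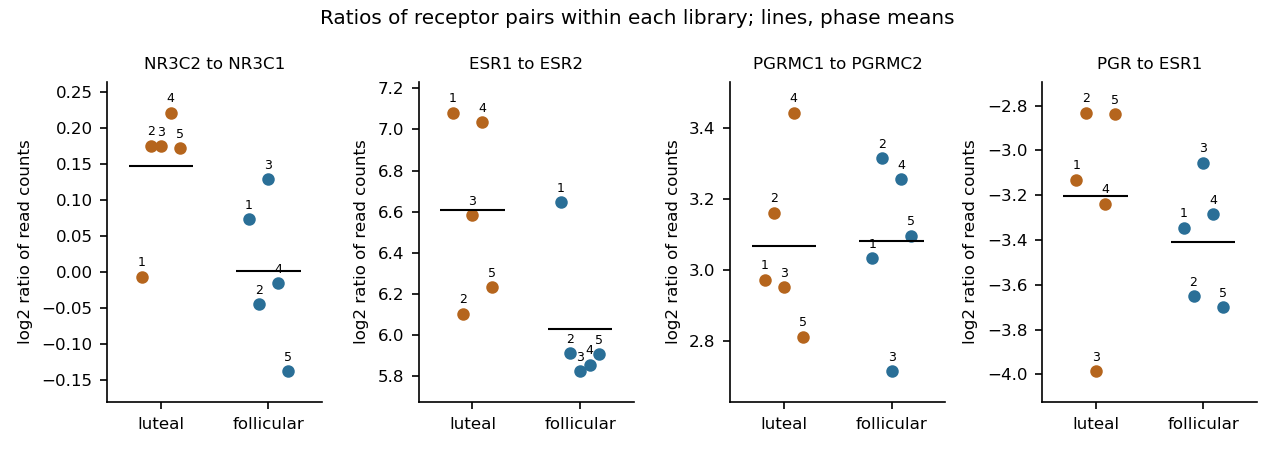
Log2 ratio of the read counts of 2 receptors within each library (vertical axis), for luteal (left) and follicular (right) libraries, numbered by replicate, with lines at the phase means. For NR3C2 to NR3C1, luteal 2 to 5 lie above all follicular libraries, and for ESR1 to ESR2, follicular 1 alone lies among the luteal libraries.

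Across the 10 libraries the levels of most receptors followed the main axis of variation. PGRMC2 followed it most closely (Pearson r = 0.953, permutation p = 0.00014; Spearman rho = 0.927, p = 0.00046), and r was 0.969 without luteal 5 and follicular 3, the 2 libraries farthest from the median of the axis. Pearson r was 0.885 for PGRMC1, 0.870 for NR3C1, 0.845 for ESR1, 0.834 for NR3C2 and 0.803 for PAQR8, with Spearman rho from 0.709 to 0.903, and both permutation p-values passed for these genes after adjustment over the 9 receptors (adjusted p from 0.0014 to 0.00887 for r and from 0.00356 to 0.0408 for rho). Without the same 2 libraries r ran from 0.697 to 0.860 for these 5 genes. For PGR r was 0.507 (permutation p = 0.135; rho = 0.515), and 0.255 without the 2 libraries, and for ESR2 it was 0.571 (permutation p = 0.0859; rho = 0.624). GPER1 ran the other way, with r = -0.640 (permutation p = 0.0519, adjusted p = 0.0667; rho = -0.685, adjusted p = 0.0438) and r = -0.453 without the 2 libraries. Such a relation was common: 21.3% of the 18267 other genes had r above 0.8 with this axis, as had 6 of the 9 receptors, and 19.2% had r below -0.8. Library total and ribosomal protein share also differed along the axis, as in follicular 1 and 3, and their part in the receptor levels was not tested.

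**Figure D4:**
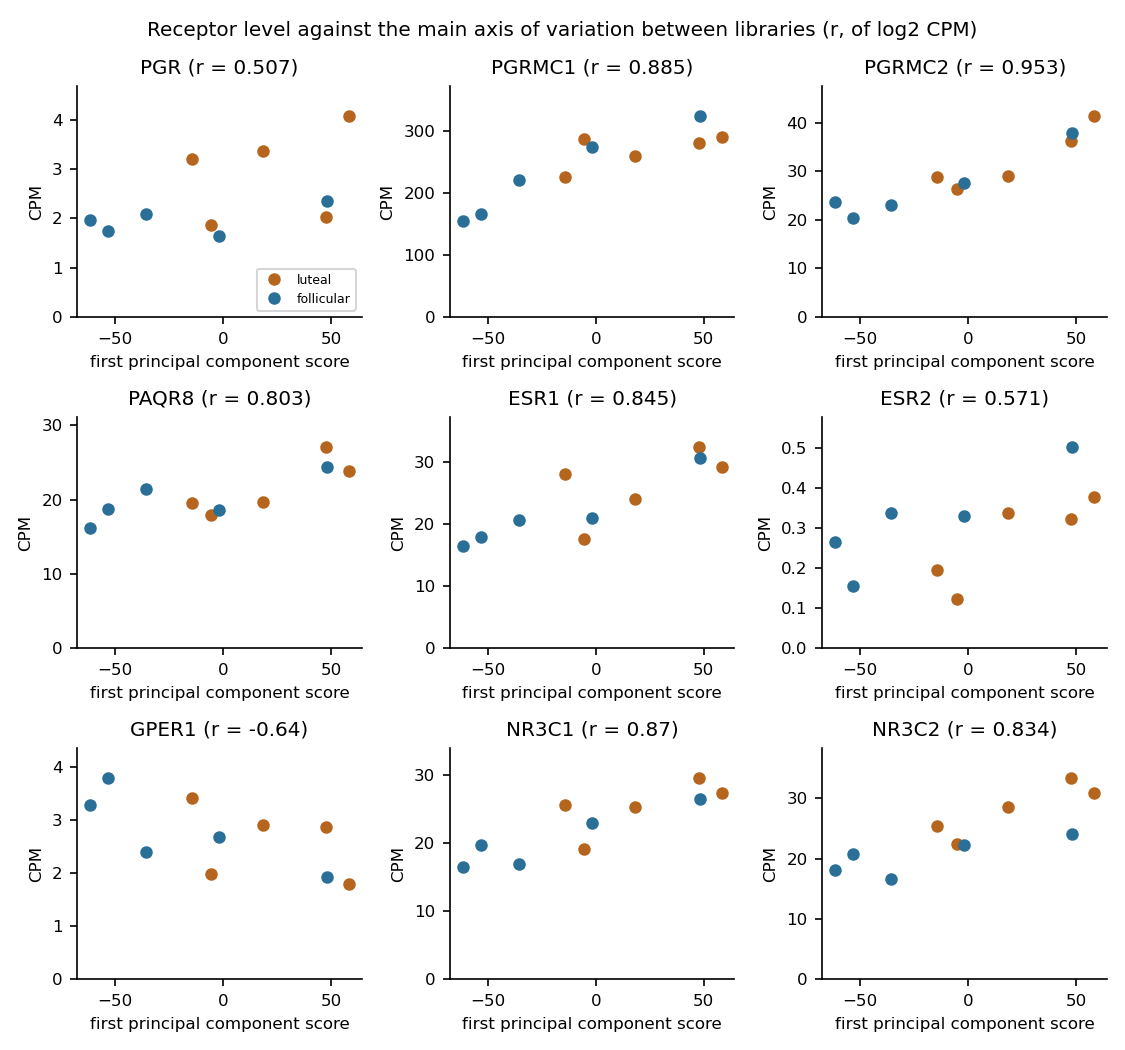
Receptor level in CPM (vertical axis, from 0) against the score of the library on the first principal component of all other genes tested (horizontal axis), for luteal (brown) and follicular (blue) libraries, with Pearson r of log2 CPM over 10 libraries. PGRMC2 lies closest to a line (r = 0.953), GPER1 slopes downward (r = -0.640), and luteal libraries 1, 2 and 5 stand above the others in PGR.

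Receptors were also related to one another across the libraries. Of 36 pairs, 9 passed by both Pearson and Spearman permutation tests after adjustment over the 36, of which 8 were positive and 1 was negative. NR3C1 and NR3C2 had r = 0.929 (rho = 0.903, adjusted permutation p = 0.00468 and 0.0138), and r = 0.853 without the 2 libraries farthest from the median of NR3C1. NR3C1 and ESR1 had r = 0.908 (rho = 0.952, adjusted permutation p = 0.0128 and 0.00432), and r = 0.870 without the 2 libraries farthest out in ESR1. The negative pair was GPER1 and PGRMC1 (r = -0.759, rho = -0.806, adjusted permutation p = 0.0389 and 0.034), with r = -0.673 without the 2 libraries farthest out in GPER1. All of these libraries share the axis described above, and related pairs were common: an absolute r of at least 0.75 was found in 27.8% of the 36 receptor pairs (10) and in 18.6% of all pairs of the other genes tested. PGR and ESR2 were in none of the 9 pairs.

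The genes whose pattern was most like that of each receptor were found by Pearson r of log2 CPM centred within phase over the 10 libraries, among 11974 named genes with a mean of at least 5 CPM, with no test. The nearest genes were IFT172 (r = 0.916) and ADAP2 (0.907) for PGR, WDR37 (0.993) and PKIB (0.991) for PGRMC1, CYLD (0.985) and CASD1 (0.984) for PGRMC2, and SUMO2 (0.939) and ALG9 (0.933) for PAQR8. For the oestrogen receptors they were UCHL5 (0.981) and PPP2R2C (0.977) for ESR1, NSD1 (0.970) and PIGV (0.969) for ESR2, and SCUBE2 (0.955) and NCAM1 (0.949) for GPER1. For the corticosteroid receptors they were FAM114A2 and GABRB2 (both 0.975) for NR3C1 and SKP2 (0.972) and UNC5D (0.966) for NR3C2. Without centring, r was 0.169 for ADAP2 with PGR, 0.675 and 0.623 for NSD1 and PIGV with ESR2, and 0.712 for SKP2 with NR3C2.

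Other genes of the steroid receptor pathways were taken from lists, and no listed gene passed edgeR over all genes. Of 5 other membrane progestin receptors and related proteins, 2 averaged higher and 3 lower in luteal libraries, with a median log2 fold change of -0.03. NENF, a secreted haem-binding relative of PGRMC1, averaged 166.3 ± 47.2 CPM in luteal and 221.8 ± 60.7 CPM in follicular libraries (edgeR adjusted p = 0.434), and PAQR7, membrane progestin receptor alpha, 29.1 ± 5.16 and 27.6 ± 7.19 CPM in luteal and follicular libraries. Of the 3 oestrogen-related orphan receptors, which bind DNA without binding oestradiol, ESRRG averaged 1.68 ± 0.80 CPM in luteal and 0.87 ± 0.33 CPM in follicular libraries (log2 fold change 0.92, SE 0.36; edgeR adjusted p = 0.426). ESRRA averaged 48.9 ± 6.69 CPM in luteal and 55.4 ± 8.495 CPM in follicular libraries.

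Of 14 chaperones and immunophilins that hold steroid receptors ready for hormone, 6 averaged higher and 8 lower in luteal libraries, with a median log2 fold change of -0.03. FKBP4, an immunophilin that aids the progesterone and glucocorticoid receptors, averaged 389 ± 63.9 CPM in luteal and 509.8 ± 83.8 CPM in follicular libraries (log2 fold change -0.39, SE 0.14; edgeR adjusted p = 0.426). PPID, another immunophilin of the HSP90 complex, averaged 56.6 ± 7.87 and 70.3 ± 7.80 CPM in luteal and follicular libraries (-0.31, SE 0.12; edgeR adjusted p = 0.426). FKBP4 and PPID were the 2 of 14 chaperones with an unadjusted edgeR p below 0.05, beside 11.4% of all genes tested. Of 15 coregulators, 13 averaged higher and 2 lower in luteal libraries, with a median of 0.20. The smallest p-values were those of PELP1, a scaffold of oestrogen receptor signalling, at 169.0 ± 32.5 CPM in luteal and 219.7 ± 50.1 CPM in follicular libraries (edgeR adjusted p = 0.426), and of NCOA1, a coactivator of the steroid receptors, at 60.6 ± 10.0 CPM in luteal and 50 ± 9.62 CPM in follicular libraries (edgeR adjusted p = 0.432).

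Known targets of the receptors were compared in the same way. Of 11 tested oestrogen-responsive genes, which include PGR, 6 averaged higher and 5 lower in luteal libraries, with a median of 0.05. IGFBP4, a binding protein of insulin-like growth factors, averaged 25.1 ± 4.91 CPM in luteal and 13.7 ± 4.89 CPM in follicular libraries (log2 fold change 0.87, SE 0.24; edgeR adjusted p = 0.426). OXTR, the oxytocin receptor, averaged 0.128 CPM in luteal and 0.134 CPM in follicular libraries and was not tested. Of 10 genes that respond to corticosteroids or progestins, 8 averaged higher and 2 lower in luteal libraries, with a median of 0.23. NFKBIA, an inhibitor of NF-kB, averaged 70.3 ± 19.6 CPM in luteal and 49.9 ± 11.1 CPM in follicular libraries (log2 fold change 0.49, SE 0.22; edgeR adjusted p = 0.426), and SGK1, a kinase induced by corticosteroids, 18.9 ± 5.60 CPM in luteal and 11.8 ± 6.002 CPM in follicular libraries (0.67, SE 0.36; edgeR adjusted p = 0.432). The counts of these lists stand beside 51.5% of all genes tested with a fold change above 0.

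**Figure D5:**
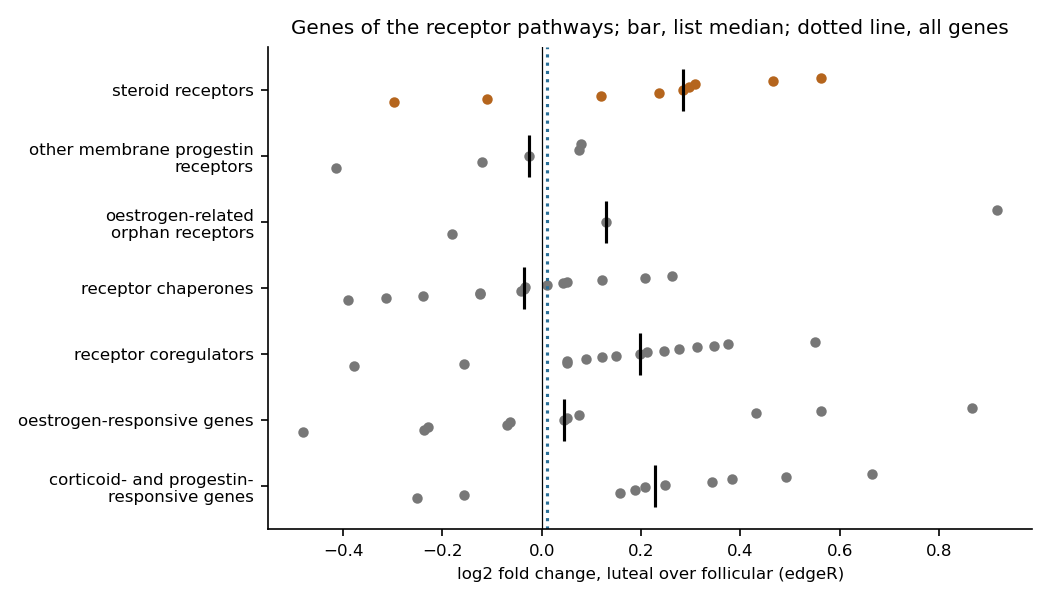
Log2 fold change of luteal over follicular libraries (horizontal axis) for the 9 receptors (top, brown) and for the tested genes of 6 lists of the receptor pathways (grey), each point 1 gene and each bar the list median; the dotted line marks the median of all genes at 0.01. Of the lists, the coregulators (0.20) and the corticoid- and progestin-responsive genes (0.23) have the highest medians, and no point passed the test over all genes.

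Cell type markers were set beside these values as summed levels per library. Neuronal markers (8 genes) summed to 1340 to 1865 CPM in luteal and 1647 to 1824 CPM in follicular libraries. Of the 8, 5 averaged higher in luteal libraries, with log2 fold changes from -0.45 to 0.30 and a median of 0.001. Astrocyte and tanycyte markers (8 genes) summed to 4107 to 6169 CPM in luteal and 4708 to 5775 CPM in follicular libraries, mostly GFAP (2804 ± 783 CPM in luteal and 3568 ± 421 CPM in follicular libraries), while 6 of the 8 averaged higher in luteal libraries (median log2 fold change 0.28). For oligodendrocytes (6 genes) the sums were 508.8 to 1281 CPM in luteal and 826.7 to 1400 CPM in follicular libraries, with all 6 genes lower on average in luteal libraries. Microglial markers (6 genes) summed to 300.0 to 339.6 CPM in luteal and 284.7 to 432.9 CPM in follicular libraries, with 2 of 6 higher on average in luteal libraries. Endothelial markers (6 genes) summed to 183.4 to 220.8 CPM in luteal and 162.3 to 228.5 CPM in follicular libraries, with 5 of 6 higher on average in luteal libraries (median 0.20). Of these, CDH5 averaged 15.6 ± 1.35 CPM in luteal and 10.7 ± 2.52 CPM in follicular libraries, and TEK 17.9 ± 4.74 CPM in luteal and 10.9 ± 3.61 CPM in follicular libraries (edgeR adjusted p = 0.426 for both). CDH5 and TEK had the largest log2 fold changes of the 6 endothelial markers, while VWF had 0.03 and CLDN5 -0.34. Choroid plexus markers (6 genes) summed to 34.3 to 115.3 CPM in luteal and 20.5 to 57.1 CPM in follicular libraries. All 6 averaged higher in luteal libraries (median log2 fold change 0.78), although FOLR1 and CLIC6 had only 0.04 and 0.05. TTR, the most abundant of the 6, had a log2 fold change of 0.58 (SE 0.52). No marker of these lists was at 0 in all libraries or passed edgeR over all genes, and the part of cell composition in the receptor levels was not tested.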

How the data were processed

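The authors deposited whole-number counts of reads per gene as a single unnormalised table. Per the labels' protocols, TriReagent served for extraction and a TruSeq stranded mRNA kit for the libraries. Per the submitters' processing notes, the tools were featureCounts 2.0.0 and SAMtools 1.9, the aligners TopHat2 2.1.1 and Bowtie2 2.3.5.1, and FastQC and bcl2fastq 2.20. The genome build, the strand setting and the handling of reads that match several genes are not given in the sources used here. Of 33775 gene identifiers 31873 (94.4%) matched the annotation of ARS-UI_Ramb_v3.0, used for names and overlaps only, and 492 symbols were taken from it. Rows with no name (22) held at most 0.000291% of a library.

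Counts were analysed in R 4.3.3 with edgeR 4.0.16 (quasi-likelihood F-test), with phase as the sole model term for the 10 libraries, after TMM scaling. Genes were kept by filterByExpr with a minimum count of 10, which the function turns into a CPM cutoff, and a total of at least 15. All 9 receptors passed, ESR2 with fewer than 10 reads in some libraries. Fold changes are luteal over follicular. Benjamini-Hochberg adjustment covered all genes tested, at a threshold of 0.05. The biological coefficient of variation was 25.1%, measured between mixes of separate ewes. Ratios and library measures were compared by two-sided exact permutation tests over 252 assignments, and correlations by 1e+05 permutations on log2 CPM with a prior count of 2. Tests were checked on simulated data. Intervals on read counts cover counting error only.

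Alternatives were RLE and upper-quartile scaling, 2 other filters, the replicate number as a block, leaving out each library or follicular 1 and 3 together, limma-voom (limma 3.58.1), DESeq2 1.42.0, robust dispersion, PC1 as a covariate, thinning to the smallest total, and pseudocounts of 0.1 and 5 for the ratios. The receptors, the lists (152 genes, 150 matched, 145 tested), the tests and the alternatives were chosen with earlier results of these data known. Named genes are all receptors, the 2 genes with the smallest p of each pathway list, the 2 most abundant genes of each tissue list (some markers of other forebrain regions are not reported here), and the 2 genes most like each receptor. NEUROD6, TBR1, EMX1, FSHB, LHB, OXTR, GFAP, CDH5, TEK, C24H7orf50, LOC121817000, FKBP5 and GREB1 were named after their values were seen.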

Additional observations from a re-analysis of the deposited data

Results flagged for a closer look

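Dixon's test for 5 samples asks whether the highest or lowest library stands off from the other libraries of its phase by more than 0.71 of the phase's range, the 95% limit. This held in 2 of 26 groups tested (9 receptor levels and 4 ratios in each phase), and chance gives about 1 in 20, or 1.3. In the log2 ratio of NR3C2 to NR3C1, luteal 1 was at -0.0069, with the nearest luteal library at 0.17 (Dixon ratio 0.783). In the log2 ratio of ESR1 to ESR2, follicular 1 was at 6.65, with the nearest follicular library at 5.91 (Dixon ratio 0.894), and its ESR2 count was 3 reads.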

How the results depend on the processing

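No receptor passed the threshold after adjustment over all genes under any of the alternatives run. NR3C2, PGR, NR3C1 and ESR1 averaged higher in luteal libraries under all 21 alternatives, with log2 fold changes from 0.28 to 0.54, 0.41 to 0.69, 0.09 to 0.42 and 0.03 to 0.47, and ESR2 averaged lower under the 16 that gave a value (-0.71 to -0.11). ESR2 did not pass the filter and had no value without follicular 5, luteal 2 or luteal 5, with at least 1 CPM in 5 libraries, and after thinning. The sign turned for GPER1 without follicular 1 and 3 together (0.16) and with PC1 as a covariate (0.182), and for PGRMC1 under the same alternatives (-0.0171 and -0.0207). With PC1 it also turned for PGRMC2 (-0.00988) and PAQR8 (-0.0818). The cause of these turns was not tested. Leaving out 1 library at a time gave -0.231 to 0.0221 for GPER1, 0.13 to 0.40 for PGRMC1, 0.18 to 0.45 for PGRMC2, 0.03 to 0.21 for PAQR8 and -0.108 to 0.0498 for the log2 ratio of PGRMC1 to PGRMC2. For the ratio of ESR1 to ESR2 a pseudocount of 5, near the ESR2 counts themselves, gave 0.71, past the threshold (exact permutation, adjusted p = 0.0317), and leaving out 1 library gave 0.46 to 0.73. The ratio of NR3C2 to NR3C1 differed by 0.11 to 0.19 with 1 library left out (exact permutation, adjusted p from 0.0635 to 0.254 over its alternatives). The count of genes called was 0 in all settings other than DESeq2 (35) and leaving out 1 library, which gave 0 to 1 (1 without luteal 4). Luteal and follicular libraries of the same number come from different ewes, and the labels do not say what else the number may stand for. The correlation of their deviations from the phase means was -0.33 to 0.63, with 4 of 10 libraries closest to their own number. The replicate block gave 0 calls, with 4512 genes at an unadjusted edgeR p below 0.05 against 2083 without it (958 to 6217 with 1 library left out). With the block, NR3C1, NR3C2 and PGRMC2 were below this threshold, beside 24.7% of all genes. PGR was above this threshold with the block, by limma-voom, after thinning, with PC1 as a covariate and without follicular 1 and 3 together. PGR was also above it without follicular 1, 2, 3 or 4 or luteal 1, 2 or 5. NR3C2 was below it under all 21 alternatives, beside 3.23% to 34.2% of all genes in each. These alternatives reuse the same 10 libraries, and how many other genes stayed below it throughout was not counted. Under the block the log2 fold change of NR3C2 was 0.46 (edgeR adjusted p = 0.143). Relative counting error was largest for ESR2, which had the fewest reads of the 9, at 3 to 23 reads per library.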

Other observations

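FKBP5, an immunophilin that is both a chaperone of the glucocorticoid receptor and a gene that this receptor induces, had a larger coefficient of variation within each phase than any of the 9 receptors. It had 18.2, 29.8, 97.3, 103.6 and 222.5 CPM in luteal libraries 1 to 5, against 30.3, 69.7, 64.5, 93.5 and 149.6 CPM in follicular libraries 1 to 5. The highest and the lowest library were both luteal, and the log2 fold change of luteal over follicular was 0.21 (SE 0.59; edgeR adjusted p = 0.863). GREB1, a coactivator of ESR1 that oestradiol induces in human cells, had 2.196, 2.23, 2.00, 1.17 and 2.78 CPM in luteal libraries 1 to 5, against 1.08, 1.17, 0.85, 1.87 and 2.57 CPM in follicular libraries 1 to 5. Luteal 4 was the lowest luteal and follicular 5 the highest follicular library in GREB1, as in 7 of the 9 receptors. The share of all genes tested with the same extremes was not counted.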
